A study of Rhizophagus irregularis DAOM 181602=DAOM 197198 with 30 samples.

Results

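The comparison described here set germinating spores of Rhizophagus irregularis, strain DAOM197198, kept for 7 d with GR24 against spores kept for 7 d with acetone. R. irregularis is an arbuscular mycorrhizal fungus, a soil fungus that lives inside plant roots and trades minerals for plant carbon. GR24 is a synthetic strigolactone, here at 1e-06 M, and acetone diluted 1000-fold was the control. In every group 80000 spores had first germinated for 2 d in 40 ml of liquid M medium, in the dark and under 2% CO2, and no plant root was present. Polyadenylated RNA was sequenced. Each of the 2 groups had 2 libraries with counts, replicates 2 and 3 for GR24 and replicates 1 and 2 for acetone, which are 4 of the 30 samples of the series. The third library of each arm was not analysed here. The members are the 30282 gene models of the 7 d table, of which 20261 had a read in these libraries and 14269 had enough reads to be tested. Models are named by their protein number in the table and by the description given there.

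Strigolactones are released by plant roots and are known in the soil as signals that wake arbuscular mycorrhizal fungi, whose spores respond with faster respiration and hyphal branching. A germinating spore grows a coenocytic hypha that holds many nuclei, lives on stored lipid and glycogen, and stops growing when no root is met. Nuclei that divide must first copy their DNA, pack it with newly made histones and then separate the copies with condensins, kinetochores and a spindle.

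The 4 libraries held 9123155 and 8338429 gene reads with GR24 and 5786080 and 11812317 with acetone, and the 20 libraries of the whole time course lay within the same range. Reads that matched several models made up 0.646% to 1.09% of a library, mitochondrially encoded models 0.0135% to 0.0223%, and the ranges of the 2 arms overlapped in both. Levels are given as CPM (reads of a model relative to the scaled library total, between libraries by the TMM method), in the order GR24 replicates 2 and 3, then acetone replicates 1 and 2. Log2 fold changes are given with ± their standard error, and positive values mean higher with GR24. Because RNA was taken from whole cultures, fewer nuclei or hyphae that express a gene and less RNA of that gene in each cannot be told apart.

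After 7 d with GR24, many transcripts of DNA replication, histones and nuclear division were higher and few or none lower, while cytochrome P450 and other oxidising and conjugating enzymes changed in both directions. The largest rises were in a chitin synthase, a LysM domain model and several enzymes. In edgeR's quasi-likelihood test, with p adjusted after Benjamini-Hochberg and a threshold of 0.05, 917 of 14269 models changed, which is 6.43%. Of these, 615 rose (4.31% of those tested) and 302 fell (2.12%). The rises were larger than the falls, with a median log2 fold change of 0.97 among the models that rose, -0.50 among those that fell and 0.00 over all models tested. At least 2-fold changes numbered 334, of which 291 were upwards. The models that rose had a median level of 19.8 CPM, those that fell 62.9 CPM and all tested models 22.3 CPM. In all 917 models the libraries of the 2 groups did not overlap in CPM, which passing this test with 2 libraries per group makes likely. The share over all models tested is not given here, so this count is no further support for the calls. DESeq2 gave 364 higher and 157 lower. The count fell to 422 higher and 152 lower without acetone replicate 1, and it was 717 higher and 598 lower without GR24 replicate 3, where the rises made up 54.5% of the calls against 67.1% with all 4 libraries.

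**Figure D1:**
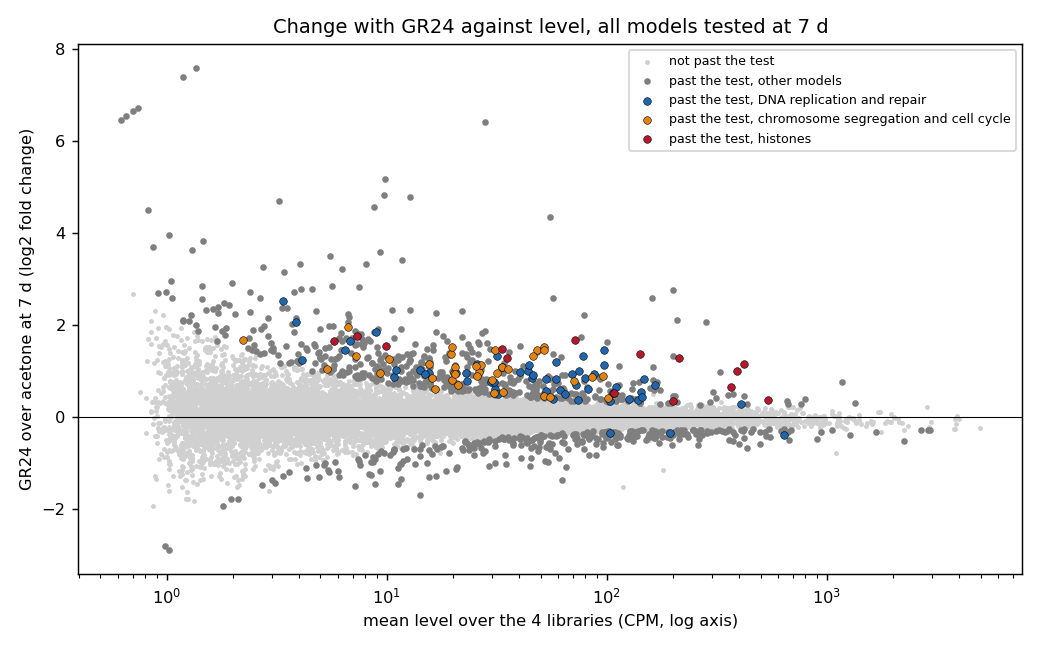
Each point is 1 of 14269 gene models tested at 7 d, placed by its mean level over the 4 libraries (CPM, log axis) and its log2 fold change with GR24 over acetone. Coloured points are the members of the histone, replication and cell cycle lists that passed the test, 103 above zero and 3 below.

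Histones, the proteins that wrap DNA, rose in all core types. Of 43 tested models whose description names a histone or histone fold, 14 rose and 0 fell (limma-voom and DESeq2 also gave 0 lower, and 0 were lower at an unadjusted p under 0.05), with a median log2 fold change of 0.11 over all 43. The list also holds proteins that are no nucleosome histones, such as a deubiquitinase of histone H2A (253283), which was among the models that rose (0.33 ± 0.10, a call that ended by DESeq2). Among the 17 tested models of the core histones themselves 10 rose, and their median was 0.51. By type, the rises were in 2 of 4 tested H2A models, 2 of 2 H2B models, 4 of 7 H3 models and 2 of 4 H4 models.

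The histone H4 model 29938 stood at 314 and 286 CPM with GR24 and at 119 and 129 CPM with acetone (log2 fold change 1.27 ± 0.09, adjusted p = 2.1e-16). Of its reads 13.0% also matched another model, so its level is uncertain to that extent. H2B (340364) was at 616 and 545 CPM against 247 and 275 CPM (1.15 ± 0.09). H3 (29937) was at 225 and 180.2 CPM against 81.2 and 76.7 CPM (1.37 ± 0.10). In each of these the lower GR24 library was more than 1.5 times the higher acetone library. H2A (343100) stood at 550.1 and 488 CPM against 255 and 268 CPM (0.99 ± 0.08). A further H3 model (334093) rose by 1.67 ± 0.13 on the log2 scale and an H3 variant (334831) by 1.27 ± 0.15. The linker histone H1 model 336437, which binds DNA between nucleosomes, was at 494 and 399.9 CPM against 301 and 271 CPM (0.65 ± 0.09). The smallest rises were those of a second H2B model (77267, 0.36 ± 0.08) and of an H2A variant (340095, 0.51 ± 0.10), and both calls ended without acetone replicate 1.

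The DNA replication and repair list showed the same direction, with 53 of 271 tested members higher, 3 lower and a median of 0.14. The core of the replicative helicase is the ring of MCM2 to MCM7, which unwinds DNA at the fork. Of its 10 tested models 8 rose, and these covered all 6 subunit types. MCM2 (28952) was at 102 and 101 CPM with GR24 against 58.6 and 55.9 CPM with acetone (0.83 ± 0.11, adjusted p = 5.7e-08). MCM3 (339749) rose by 0.82 ± 0.13, MCM4 (74630) by 0.90 ± 0.13, MCM6 (39935) by 0.61 ± 0.11 and MCM7 (245895) by 0.82 ± 0.12. MCM5 had 2 models that rose, 6028 by 1.09 ± 0.15 and 292155 by 1.64 ± 0.30, the latter at 1.57 and 4.55 CPM with acetone and at 1.22 or 2.75 on the log2 scale without 1 acetone library. Per length, the deposited RPKM values of MCM2 to MCM7, leaving out the additional models 292155 and 16716 of MCM5 and MCM2, lay between 24.0 and 45.8 with GR24 and between 11.7 and 25.8 with acetone.

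Loading, priming and elongation factors rose beside the helicase. The origin recognition complex, which marks where replication starts, had 3 of 8 tested models higher, among them subunit 6 (15005, 10.8 and 7.95 CPM against 3.66 and 3.26 CPM). The catalytic subunit of DNA polymerase alpha (328449), which starts new strands, was at 97.5 and 102 CPM against 47.9 and 52.1 CPM (0.99 ± 0.11, adjusted p = 1.4e-09). Its B subunit-type partner (89787) rose by 1.12 ± 0.13, and 5 of 9 tested polymerase and primase models rose in all. The sliding clamp PCNA (335451) stood at 209 and 167 CPM against 104 and 108 CPM (0.82 ± 0.10). Replication protein A, which coats single-stranded DNA, had 3 of 4 tested models higher, led by 66395 (0.83 ± 0.13). In the GINS complex, a partner of the helicase, 2 of 3 passed with rises of 0.86 ± 0.23 (202875) and 0.50 ± 0.15 (85035), and neither passed by DESeq2.

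All 3 tested models of ribonucleotide reductase, the enzyme that makes deoxyribonucleotides, rose. The small subunit 80358 was at 86.0 and 77.6 CPM against 36.6 and 35.9 CPM (1.18 ± 0.12), and a large chain (84119) at 116 and 114 CPM against 58.2 and 63.1 CPM (0.92 ± 0.10). The large subunit 343286 rose by 1.12 ± 0.10. Purine and pyrimidine synthesis, the supply upstream of this enzyme, had 3 of 49 tested members higher (6.12%, against 4.31% of all models) and 1 lower. DNA topoisomerase II (141416), which untangles copied chromosomes, stood at 135 and 148 CPM against 54.0 and 49.8 CPM (1.45 ± 0.10, adjusted p = 6.9e-16).

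Repair genes differed in the share that passed. Models described as Fanconi anaemia proteins, known in vertebrates for the repair of crosslinked DNA, rose in both cases, FANCI (343701) by 1.31 ± 0.11 and FANCD2 (176481) by 0.64 ± 0.10. The Rad54 models 34916 and 27168, helicase-like motors of recombination, rose by 2.06 ± 0.38 and 0.96 ± 0.20. Mismatch repair proteins of the MutS and MutL type mostly did not pass, with 1 of 17 tested models higher (5.88%, against 4.31% of all models) and a median of -0.09. That model was 348552 (0.27 ± 0.08), a call that ended by DESeq2 and without either acetone library. At an unadjusted p under 0.05, 6 of the 17 were higher and 0 lower. The 3 members of the replication and repair list that fell were a model with a DNA ligase domain (99668, -0.40 ± 0.08), a BTB domain model (24759, -0.35 ± 0.09) and a SET-like nucleosome assembly model (18298, -0.35 ± 0.10). The call of 24759 ended without acetone replicate 2, and that of 18298 without acetone replicate 1 and by DESeq2.

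**Figure D2:**
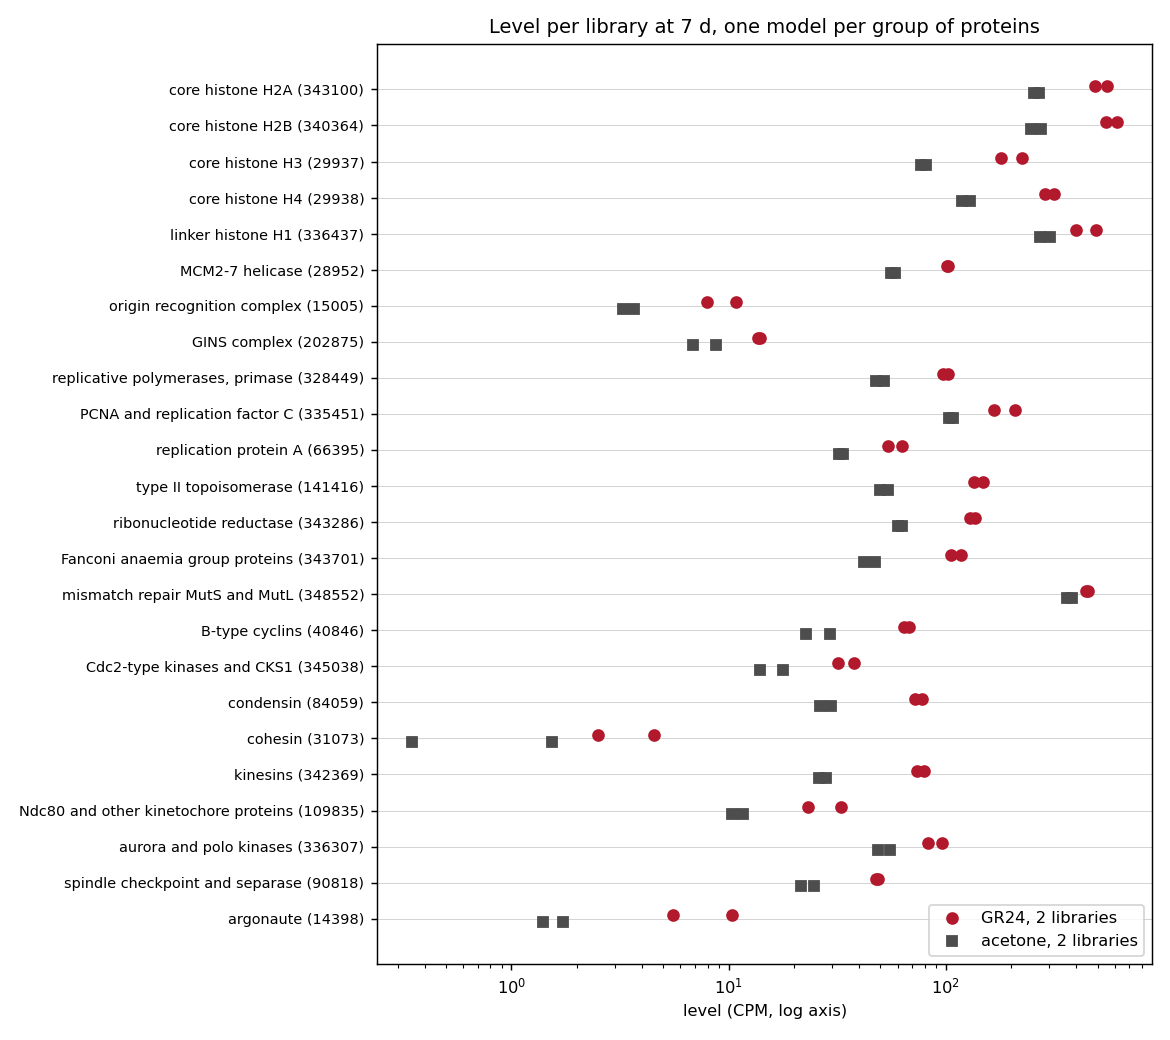
Level per library (CPM, log axis) of the called model with the smallest adjusted p in each of 24 groups of proteins of replication, repair, division and RNA silencing, with its protein number in parentheses; circles are the 2 GR24 libraries and squares the 2 acetone libraries at 7 d. Levels run from the cohesin subunit 31073 (2.49 and 4.55 against 0.349 and 1.54 CPM) to H2B (616 and 545 against 247 and 275 CPM). Both circles lie to the right of both squares in every row, which follows from drawing only called models that rose.

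Genes of nuclear division rose as well. In the list of chromosome segregation and cell cycle 37 of 224 tested members rose and 0 fell (1 lower by limma-voom and 0 by DESeq2, with 7 lower at an unadjusted p under 0.05), with a median of 0.06 over the whole list. The B-type cyclin model 40846, the activator of the mitotic kinase, was at 67.7 and 64.2 CPM with GR24 and at 22.7 and 29.4 CPM with acetone (1.31 ± 0.14, adjusted p = 1.8e-10). Its partner kinase Cdc2 (345038) was at 37.8 and 32.0 CPM against 13.9 and 17.8 CPM (1.11 ± 0.17). The kinase subunit CKS1 (336707) rose by 0.94 ± 0.15. A Chk2-like checkpoint kinase (335271) rose by 1.10 ± 0.10.

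Condensin compacts chromosomes before they part, and 7 of its 10 tested models rose. The D2 subunit (84059) was at 72.4 and 77.9 CPM against 29.6 and 26.4 CPM (1.44 ± 0.13, adjusted p = 2.0e-12). SMC2 (5518), a core subunit, was at 123 and 125 CPM against 68.8 and 66.6 CPM. Cohesin, which holds the copies together, had 1 of 9 tested models higher, described as the meiotic subunit Rec8 (31073), and that call ended without GR24 replicate 2 (1.18), without acetone replicate 1 (1.19) and by DESeq2, while its log2 fold change was 3.29 without acetone replicate 2.

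Kinetochore proteins, which tie chromosomes to the spindle, rose in 7 of 10 tested models. The largest of these rises was in a spindle and kinetochore-associated model (109835, 1.36 ± 0.19), and Ndc80 (92089) and Spc24 (193253) rose by 0.92 ± 0.19 and 0.94 ± 0.18. Of 41 tested kinesins, the motors that walk on microtubules, 4 rose. The kinesin 342369 was at 79.1 and 74.0 CPM against 28.1 and 26.2 CPM (1.51 ± 0.13), and the kinesins 337585 and 68162 rose by 1.44 ± 0.13 and 1.96 ± 0.29. A model described as the spindle assembly factor TPX2 (340961) was at 36.9 and 34.2 CPM against 11.3 and 13.5 CPM. The aurora B kinase model 336307 rose by 0.77 ± 0.11 and separase (64985), the protease that releases the chromosome copies, by 1.26 ± 0.24. The spindle checkpoint protein Mad2 (54221) was at 13.7 and 11.2 CPM against 5.40 and 7.20 CPM, and its call ended by DESeq2, without GR24 replicate 2 and without acetone replicate 1.

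Counted together, the histones and the groups of replication, repair and division proteins had 195 tested models, of which 75 rose and 0 fell (2 lower at an unadjusted p under 0.05; 0 lower and 63 higher by DESeq2; 0 lower and 75 higher by limma-voom). Their median log2 fold change was 0.33, against 0.00 over all models. The groups were formed after the values had been seen, so the counts describe them and test nothing. The 3 keyword lists together held 103 of the 615 models that rose, which is 16.7%.

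Among chromatin modifiers 14 of 155 tested members rose (9.03%, against 4.31% of all models) and 3 fell (9 and 1 by DESeq2). A model described as UHRF1 (112765), known in mammals for guiding the copying of DNA methylation, was at 91.2 and 83.8 CPM against 36.4 and 35.3 CPM (1.29 ± 0.12, adjusted p = 4.4e-12). A DNA cytosine methyltransferase (336043) was at 62.8 and 50.7 CPM against 25.8 and 26.8 CPM (1.11 ± 0.14). A chromodomain model that also carries an Hsp20 domain (6698) fell, from 39.2 and 39.6 CPM with acetone to 20.2 and 17.2 CPM (-1.07 ± 0.16).

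Argonautes, which bind small RNAs in RNA silencing, form a large family in this fungus. Of 37 tested argonaute models 10 rose and 0 fell, with a median of 0.20. The model 14398 was at 5.53 and 10.4 CPM against 1.39 and 1.72 CPM (2.30 ± 0.36), and the model 3847 at 116 and 104 CPM against 68.1 and 79.1 CPM (0.58 ± 0.10). RNA-dependent RNA polymerases, which make double-stranded RNA for the same pathway, had 1 of 20 tested models higher (28444) and 1 lower (64459, -0.38 ± 0.11). Both calls ended by DESeq2 and without acetone replicate 2.

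Of DNA-binding proteins with a high mobility group box, 8 of 107 tested models were higher (7.48%, against 4.31% of all models) and 6 lower. DESeq2 gave 7 higher and 1 lower. The models 337560 and 335973 rose by 1.40 ± 0.15 and 1.35 ± 0.24. A model described as the mating type protein MAT1-2-1 (348510) fell from 30.7 and 32.9 CPM with acetone to 17.6 and 18.4 CPM (-0.83 ± 0.16). In the meiosis and mating list 6 of 42 tested members rose and 3 fell (4 and 1 by DESeq2). Of the 6 rises, a fork protection model (341179, 1.46 ± 0.16) and a Mnd1-like model of meiotic recombination (336252, 1.38 ± 0.22) had values well apart between groups.

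The largest changes with a described function lay outside replication. A chitin synthase model with a cytochrome b5 domain (67965), an enzyme of the fungal cell wall, stood at 55.6 and 54.9 CPM with GR24 and at 1.39 and 0.257 CPM with acetone (6.40 ± 0.29, adjusted p = 3.9e-22). Its value depended on which acetone library was kept, at 7.67 without replicate 1 and 5.29 without replicate 2. A model with a LysM domain (349023), a module that binds chitin, was at 16.5 and 21.8 CPM against 0.697 and 0.429 CPM (5.16 ± 0.35). A collagen-like model (347597) was at 16.7 and 20.5 CPM against 1.39 and 0.257 CPM (4.82 ± 0.37), with 6.10 and 3.72 when acetone replicate 1 or 2 was left out. The chitin and glucan list as a whole, this synthase included, had 6 of 130 tested members higher (4.62%, against 4.31% of all models) and 4 lower (2 and 2 by DESeq2). Of the lower members, 2 were chitin deacetylases, which strip acetyl groups from chitin (90007, -0.30 ± 0.08; 345467, -0.28 ± 0.09), and both calls ended when GR24 replicate 2 or either acetone library was left out.

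Several enzymes of small-molecule turnover rose by large factors. A class V aminotransferase (3482) was at 19.3 and 14.2 CPM against 1.22 and 0.429 CPM (4.56 ± 0.36), with 5.25 and 3.76 when acetone replicate 1 or 2 was left out. A hydrolase of the arylacetamide deacetylase type (346819) was at 18.3 and 16.1 CPM against 1.05 and 1.63 CPM (3.59 ± 0.30). Type 11 methyltransferases, which move methyl groups from S-adenosylmethionine to other molecules, had 6 of 59 tested members higher and 3 lower (4 and 1 by DESeq2). Among them 25998 was at 12.5 and 8.07 CPM against 0.349 and 1.20 CPM (3.49 ± 0.38, and 4.82 without acetone replicate 2), and 79000 rose by 2.84 ± 0.34.

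Cell surface and regulatory proteins were among the rises too. A RING-type E3 ubiquitin ligase (350230) was at 339 and 338 CPM against 80.3 and 78.0 CPM (2.10 ± 0.09, adjusted p = 5.7e-25). Of 39 tested G protein-coupled receptors and G proteins 3 rose (7.69%, against 4.31% of all models). They included the rhodopsin-type receptors 326783 (17.5 and 11.9 CPM against 1.74 and 1.29 CPM) and 33646 (2.37 ± 0.41). Among major facilitator and sugar transporters 5 of 57 tested members rose (8.77%) and 2 fell. The sugar transporter 341721 was at 19.4 and 16.3 CPM against 2.27 and 4.37 CPM (2.31 ± 0.25, and 2.97 without acetone replicate 2), and a major facilitator (340471) at 27.5 and 27.5 CPM against 9.59 and 7.29 CPM (1.75 ± 0.20). A SUMO protease (25943) was at 44.1 and 39.9 CPM against 12.2 and 11.8 CPM (1.82 ± 0.17).

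A few models had no read in either acetone library. A UDP-glycosyltransferase (66257), at 1.30 and 1.66 CPM with GR24, was at least 8.73-fold higher. A methyltransferase (9843), which the type 11 list counted above does not hold, was at least 8.40-fold higher and the RNA-dependent RNA polymerase 28444 at least 7.39-fold. Each was taken against a floor of 3 acetone reads over the group. These 3 calls ended by DESeq2 and without acetone replicate 2. An S41 peptidase (2461) with 1 to 3 acetone reads had a ratio of 28.2 with a 95% exact interval of 4.67 to 1154, and the model 28110 had a ratio of 15.8 (5.08 to 79.3). Both calls ended by DESeq2 and without acetone replicate 2. The fitted log2 fold change of 28110 was 3.81, and it was 2.32 without acetone replicate 2 and 7.71 without acetone replicate 1, while that of 2461 was 4.49 and 6.65 without acetone replicate 2.

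Among cytochrome P450 enzymes, which oxidise small hydrophobic molecules, more models fell than rose. Of 129 tested models 18 fell and 11 rose, with a median of -0.18. DESeq2 gave 12 lower and 6 higher, and the counts were 13 and 7 without acetone replicate 1 and 27 and 9 without GR24 replicate 3. Their summed level was 6061 and 6440.5 CPM in the GR24 libraries and 6954 to 6981 CPM with acetone. The rises were the larger changes. The model 347608 was at 325 and 373 CPM against 50.2 and 53.2 CPM (2.75 ± 0.10, adjusted p = 1.7e-28), and 345274 at 22.6 and 20.3 CPM against 2.27 and 1.89 CPM (3.40 ± 0.26). The falls were smaller and lay in models with more reads. The model 317811 fell from 558 and 516 CPM with acetone to 324 and 345 CPM (-0.68 ± 0.08, adjusted p = 1.4e-08), and 6900 from 608 and 596 CPM to 370.0 and 423 CPM (-0.60 ± 0.08). The models 4393 and 11324 fell as well (-0.83 ± 0.11 and -0.84 ± 0.11).

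Among aldo/keto reductases, UDP-glycosyltransferases and aromatic-ring hydroxylases more models fell than rose. The type 11 methyltransferases described above went the other way, with 6 higher and 3 lower. Of 40 tested aldo/keto reductases, which reduce aldehydes and ketones, 8 fell and 3 rose. The reductase 22273 fell from 80.2 and 98.1 CPM with acetone to 41.0 and 42.8 CPM (-1.10 ± 0.12, adjusted p = 5.1e-10). Of 17 tested UDP-glycosyltransferases, which attach sugars, 4 fell and 2 rose (2 and 0 by DESeq2). The model 234774 fell from 20.7 and 22.6 CPM to 6.51 and 6.88 CPM (-1.70 ± 0.21), the largest fall among described models above 5 CPM with acetone in both libraries, and 552 from 62.4 and 59.6 CPM to 28.2 and 29.4 CPM (-1.08 ± 0.13). Of 12 tested aromatic-ring hydroxylases 3 fell and 0 rose (limma-voom and DESeq2 also gave 0 higher, with 0 higher at an unadjusted p under 0.05). The falls were those of 14759 (-1.18 ± 0.29), 7932 (-1.02 ± 0.22) and 30943 (-0.86 ± 0.21). DESeq2 kept the call of 7932 alone, and each call ended when 1 library was left out, acetone replicate 2 for 7932 and 14759 and acetone replicate 1 for 30943.

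In the glutathione S-transferase and antioxidant list 12 of 131 tested members fell and 5 rose (9 and 1 by DESeq2). A glutathione S-transferase (343163) was at 743 and 759.7 CPM with GR24 and at 1064 and 1031 CPM with acetone (-0.48 ± 0.08). A second transferase (82879) fell by 0.90 ± 0.14 on the log2 scale and an alkyl hydroperoxide reductase (349345), which removes peroxides, by 0.62 ± 0.09. Of the 5 rises, 1 was the mitotic checkpoint kinase 90818, drawn in by a keyword. Multicopper oxidases, the laccase family, had 3 of 9 tested models higher and 2 lower, with the largest change a fall from 48.1 and 45.9 CPM with acetone to 19.0 and 26.7 CPM (349273, -1.04 ± 0.15).

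The other large falls were of mixed function. A model described as O-acetylhomoserine aminocarboxypropyltransferase (276270), which makes sulfur-containing amino acids, fell from 18.8 and 14.4 CPM with acetone to 5.21 and 6.64 CPM (-1.47 ± 0.23, adjusted p = 5.7e-06). A myosin-like model (35042) fell from 98.8 and 81.1 CPM to 38.4 and 30.7 CPM (-1.37 ± 0.13). An NmrA-like model (15853) was at 3.69 and 5.81 CPM against 11.2 and 14.6 CPM (-1.47 ± 0.26), and a subtilisin-type peptidase (328742) at 8.24 and 11.0 CPM against 26.3 and 21.4 CPM (-1.30 ± 0.20). Of the 10 largest falls with a description, 6 were in models under 6 CPM with acetone (349981, 99672, 22498, 21403, 7483 and 257225), and each of these calls ended by DESeq2 and without GR24 replicate 2. Without that library the log2 values of 349981, 99672 and 21403 were -1.89, -1.81 and -1.28, and without GR24 replicate 3 they were -7.01, -6.92 and -2.53.

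Reserve and energy genes come next. Of 17 tested trehalose and glycogen models 3 fell (17.6%, against 2.12% of all models) and 0 rose, with a median of -0.08. At an unadjusted p under 0.05, 7 were lower and 1 higher. Limma-voom gave 4 lower and DESeq2 1 lower, and both gave 0 higher. The falls were small, among them that of a glycogen phosphorylase (78197, -0.26 ± 0.08, adjusted p = 0.0459), and these calls ended under 3 or more of the alternatives tried. Of 90 tested models of fatty acid beta-oxidation and peroxisomes, which burn stored lipid, 5 rose (5.56%, against 4.31% of all models) and 1 fell (1 and 0 by DESeq2). By edgeR 0 of 38 tested glycolysis models and 0 of 98 models of the respiratory chain and ATP synthase passed (2 and 7 at an unadjusted p under 0.05, and 0 of each by limma-voom and by DESeq2). The 14 tested mitochondrially encoded models had 0 past the test (1 at an unadjusted p under 0.05; limma-voom and DESeq2 gave 0).

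Genes of protein synthesis mostly did not pass the test. Of 87 tested 40S and 60S ribosomal proteins 0 passed by edgeR (7 higher and 0 lower at an unadjusted p under 0.05; limma-voom and DESeq2 gave 0), with a median of 0.08. Of 149 tested translation factors and tRNA synthetases 0 passed (6 at an unadjusted p under 0.05; limma-voom and DESeq2 gave 0). In ribosome biogenesis 2 of 141 tested models rose and 1 fell. Of 1077 tested protein kinases 20 rose and 17 fell (14 and 7 by DESeq2), and both shares are below those of all models, 4.31% and 2.12%.

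Counts for the remaining lists follow, and over all models 4.31% rose and 2.12% fell. Of 372 tested transcription factors 27 rose (7.26%) and 7 fell. Among them were a zinc finger model (146233) at 43.1 and 34.6 CPM against 14.6 and 11.2 CPM and a bZIP model (346167) at 98.8 and 76.2 CPM against 135 and 134 CPM. Of 219 tested cytoskeleton models 13 rose (5.94%) and 4 fell, among them a beta tubulin (21548) at 208 and 209.6 CPM against 136 and 140.3 CPM. DESeq2 gave 7 and 2 for the cytoskeleton. In the RNA silencing keyword list, which holds the argonautes, 10 of 50 tested members rose (20.0%) and 1 fell (7 and 0 by DESeq2). The largest rise in this list was 2.30 on the log2 scale. It therefore leaves out the RNA-dependent RNA polymerase named above as higher, which rose by 6.46. In kelch and BTB proteins 22 of 616 rose (3.57%) and 10 fell (13 and 4 by DESeq2).

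Of ABC and multidrug transporters 10.7% passed the test, against 6.43% of all models. Phosphate and nitrogen uptake had 5.26% lower and P-type ATPases and ion channels 3.85%, against 2.12% of all models. ABC and multidrug transporters had 3 of 56 tested members higher and 3 lower, but 2 of the 3 rises were the condensin subunits 5518 and 205343, which carry the same type of ATPase domain. Phosphate and nitrogen uptake had 2 of 38 lower and 0 higher (4 higher at an unadjusted p under 0.05; limma-voom and DESeq2 gave 0), including a glutamine synthetase (13789, 232 and 270.0 CPM against 323 and 319 CPM). P-type ATPases and ion channels had 4 of 104 lower and 0 higher (4 higher at an unadjusted p under 0.05; limma-voom and DESeq2 gave 0), including a cation channel (288412, 38.9 and 43.3 CPM against 61.2 and 56.3 CPM). The calls of 13789 and 288412 ended when acetone replicate 1 was left out, and that of 13789 also when acetone replicate 2 or GR24 replicate 2 was.

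In protein turnover and folding, ubiquitin ligases and conjugating enzymes had 18 of 466 tested members higher and 9 lower. Peptidases had 9 of 245 higher and 7 lower, and the HSP70 family 3 of 119 higher and 6 lower. Past the test in either direction were 5.79%, 6.53% and 7.56% of them, near the 6.43% of all models. DESeq2 gave 14 and 3, 3 and 3, and 1 and 3 for these lists. The proteasome had 3 of 63 higher and 0 lower (0 lower at an unadjusted p under 0.05; limma-voom and DESeq2 gave 0). Other chaperones had 4 of 89 lower and 0 higher (3 higher at an unadjusted p under 0.05; limma-voom and DESeq2 gave 0). Sel1 repeat proteins had 5 of 402 lower and 0 higher (9 higher at an unadjusted p under 0.05; limma-voom and DESeq2 gave 0). Calcium signalling had 5 of 133 higher and 6 lower (8.27% past the test). Its only rise of at least 2-fold was 3.40 on the log2 scale, the value of the P450 345274 named above. Vesicle traffic had 8 of 292 higher and 3 lower (3.77%), and amino acid metabolism 2 of 69 in each direction (5.80%). Fatty acid and sterol synthesis had 2 of 73 higher and 1 lower (4.11%), and lipases 2 of 85 higher and 1 lower (3.53%). Of 39 tested models of the TCA and glyoxylate cycles 1 rose, and of 40 secreted and effector-like models 1 fell.

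**Figure D3:**
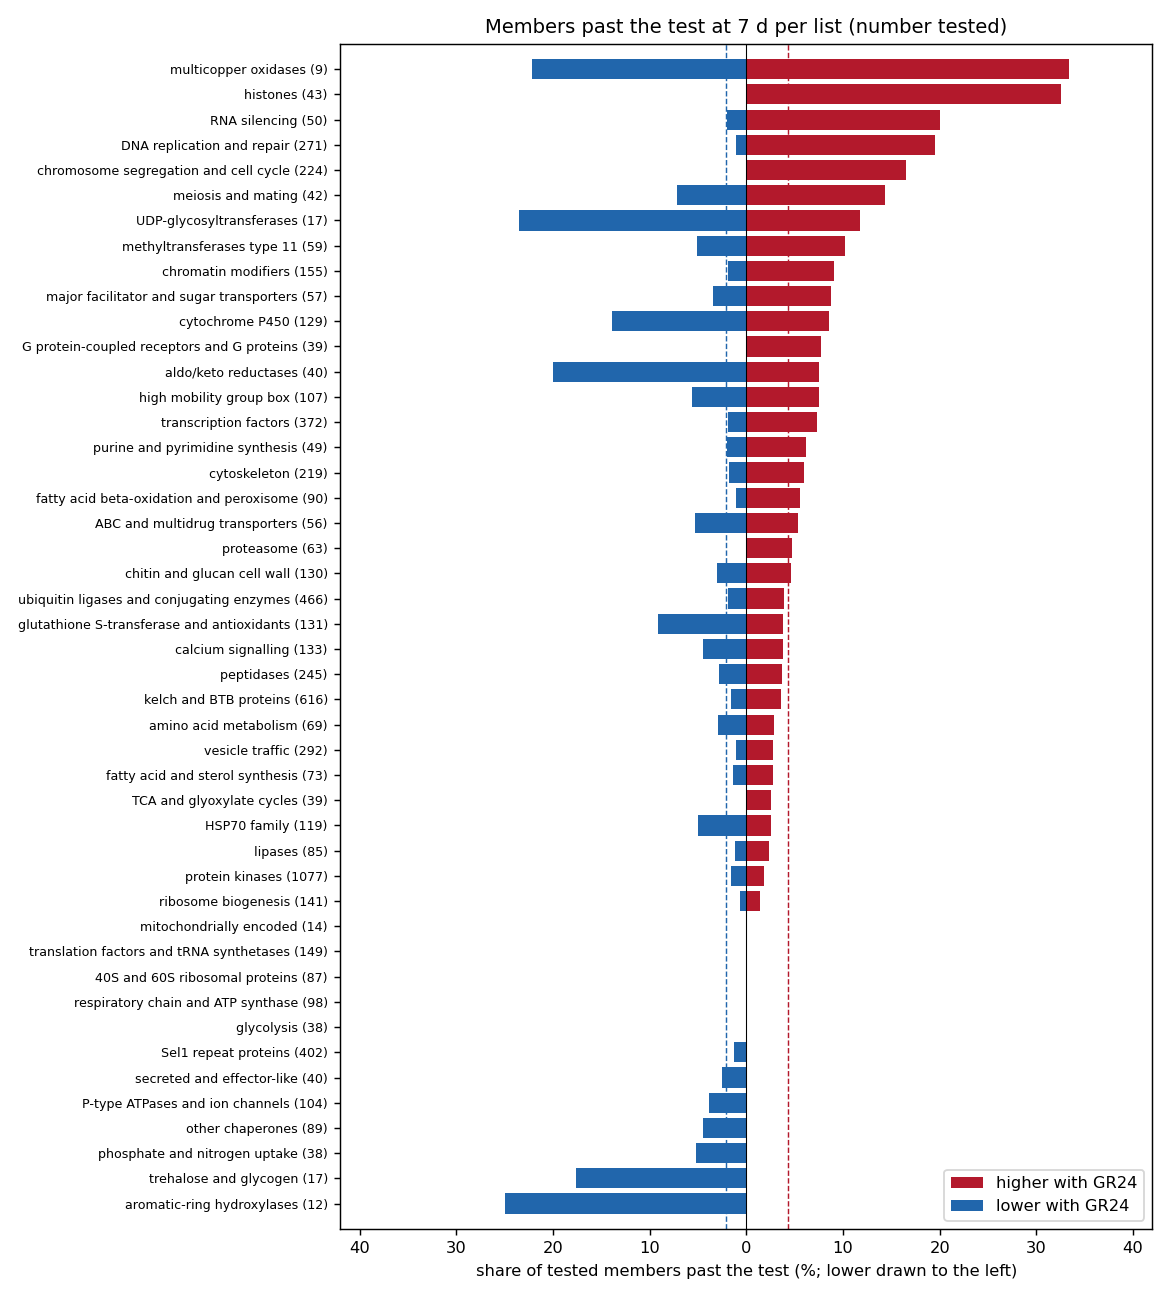
Share of tested members of each of 46 keyword lists that passed the test at 7 d, higher with GR24 to the right and lower to the left, with the number tested in parentheses. Dashed lines mark the shares of all models, 4.31% higher and 2.12% lower; histones reach 14 of 43 higher, aromatic-ring hydroxylases 3 of 12 lower, and 5 lists have no member past the test.

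Models without a description changed about as often as described ones, in 275 of 4760 (5.78%) against 642 of 9509 (6.75%). The undescribed model 347197 was at 24.4 and 24.3 CPM against 1.57 and 0.515 CPM (4.78 ± 0.31), with 5.53 and 3.94 when acetone replicate 1 or 2 was left out. The models 182350, 26861 and 12095 had no acetone read and were at least 16.1-fold, 14.1-fold and 7.73-fold higher, calls that ended by DESeq2. The call of 12095 also ended without acetone replicate 2 (log2 fold change 6.36), and this model could not be tested without either GR24 library. The largest undescribed fall above 5 CPM was that of 15241, from 8.71 and 12.4 CPM with acetone to 4.12 and 3.44 CPM (-1.51 ± 0.27).

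The levels at the other times show where the 7 d groups lie in the time course, which had acetone and GR24 groups of 2 or 3 libraries at 1 h, 2 d and 14 d. These levels were scaled over all 20 libraries. The summed level of the core histones was 3068 to 3746 CPM with acetone at 2 d, 2785 and 3011 CPM with acetone at 7 d and 2049 to 2207 CPM with acetone at 14 d. With GR24 it was 4120.1 and 4146 CPM at 2 d, 3978 and 4290.2 CPM at 7 d and 2053 to 2182 CPM at 14 d. At 7 d the GR24 libraries thus lay above both 7 d acetone libraries and beside the GR24 libraries of 2 d, and at 14 d the arms overlapped.

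The helicase, ribonucleotide reductase, condensin and cyclin also declined with acetone from 2 d to 14 d and were higher with GR24 than with acetone at 7 d. Unlike the core histones, their GR24 levels at 7 d lay within the acetone range of 2 d. For condensin they also lay below GR24 at 2 d (366 and 380.2 against 420.5 and 479.9 CPM), while in the other groups named here these 2 ranges overlapped. The summed MCM2 to MCM7 level with acetone was 411 to 600.3 CPM at 2 d, 285 and 291 CPM at 7 d and 185 to 202 CPM at 14 d, and with GR24 at 7 d it was 485 and 523 CPM, within the acetone range of 2 d. Ribonucleotide reductase summed to 319.5 and 336 CPM with GR24 at 7 d, against 157 and 158 CPM with acetone at 7 d and 232 to 415 CPM with acetone at 2 d. The cyclin 40846 was at 63.9 and 67.2 CPM with GR24 at 7 d on this scale, against 22.6 and 29.3 CPM with acetone at 7 d, 42.9 to 75.9 CPM with acetone at 2 d and 9.37 to 11.4 CPM with acetone at 14 d. In all of these the GR24 and acetone libraries overlapped at 14 d. The whole keyword lists differed less at 7 d. The chromosome segregation and cell cycle list summed to 18988 and 19379 CPM with GR24 and 18942 and 18944 CPM with acetone. The replication and repair list summed to 18314 and 18248 CPM against 16803 and 17015 CPM, and the histone list to 7521 and 7033 CPM against 5715 and 5851 CPM.

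**Figure D4:**
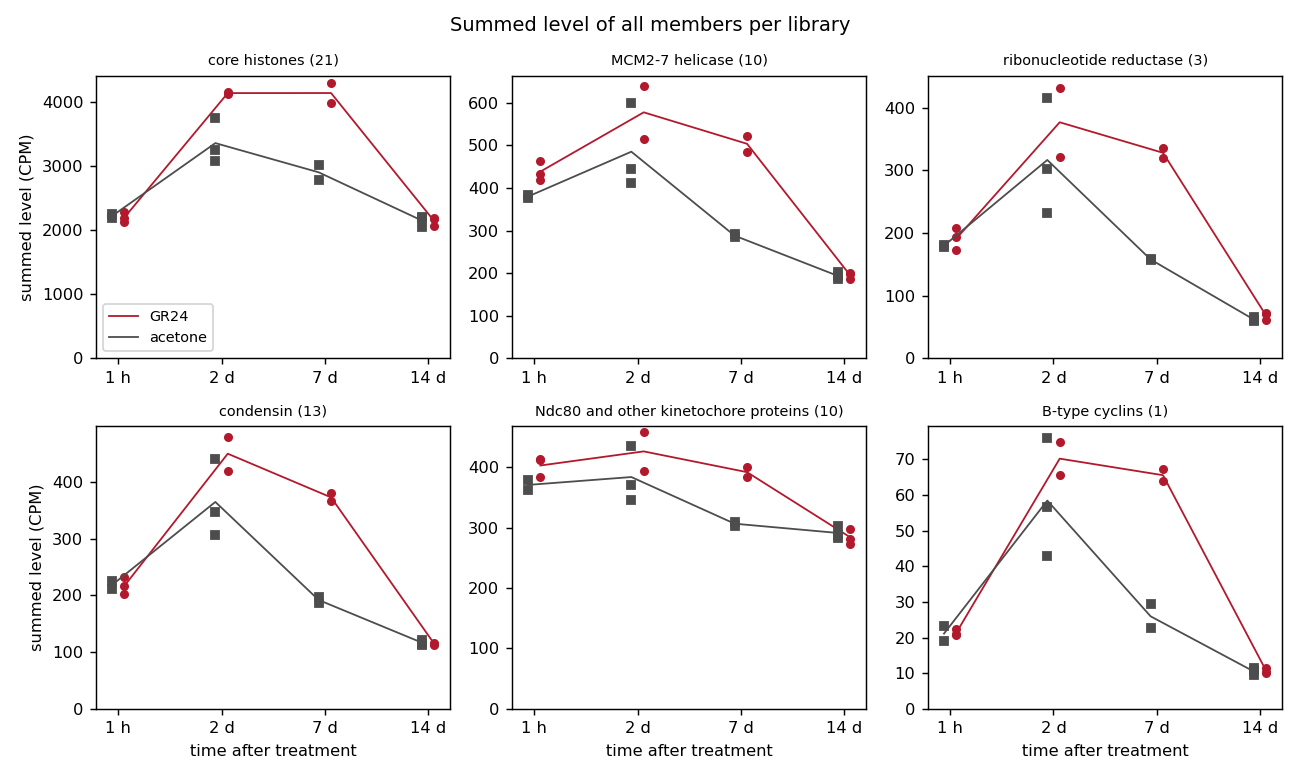
Summed level (CPM) of all models of 6 groups of proteins in each of 20 libraries, by time after treatment; points are libraries, lines join group means, and the number of models is in parentheses. At 7 d both GR24 libraries lie above both acetone libraries in each panel, for example 366 and 380.2 against 187 and 197 CPM for condensin, and at 14 d the arms overlap. The groups were formed after values had been seen.

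The models that rose were also compared between acetone groups alone. Of the 615 models that rose at 7 d, 353 (57.4%) were at least 2-fold higher with acetone at 2 d than with acetone at 14 d, against 1088 of 14269 tested models (7.62%). The opposite order was seen in 31 (5.04%) and 457 (3.20%). Among the 302 models that fell, 22 (7.28%) were higher with acetone at 2 d and 47 (15.6%) higher with acetone at 14 d.

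The models with the largest rises had several courses. The LysM model 349023 averaged 33.4 CPM with acetone and 31.3 CPM with GR24 at 2 d, and at 14 d it averaged 0.0985 and 0.353 CPM, and its effect at 7 d was higher than at 2 d by 5.29 on the log2 scale. The collagen-like model 347597 and the undescribed 347197 had a like course, at 27.4 and 41.5 CPM with acetone at 2 d. The chitin synthase 67965 was higher with GR24 at all 4 times, with log2 fold changes of 5.81 at 1 h, 6.20 at 2 d and 4.07 at 14 d. The aminotransferase 3482 averaged 0.425 CPM with GR24 at 2 d, 16.7 CPM at 7 d and 96.6 CPM at 14 d, and its acetone mean was 15.9 CPM at 14 d. The hydrolase 346819, the methyltransferase 25998 and the P450 345274 were highest with GR24 at 1 h, at 295, 86.3 and 173 CPM, and passed the test at all 4 times. So did the E3 ligase 350230, with log2 fold changes of 2.43 at 1 h, 2.43 at 2 d and 1.44 at 14 d.

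**Figure D5:**
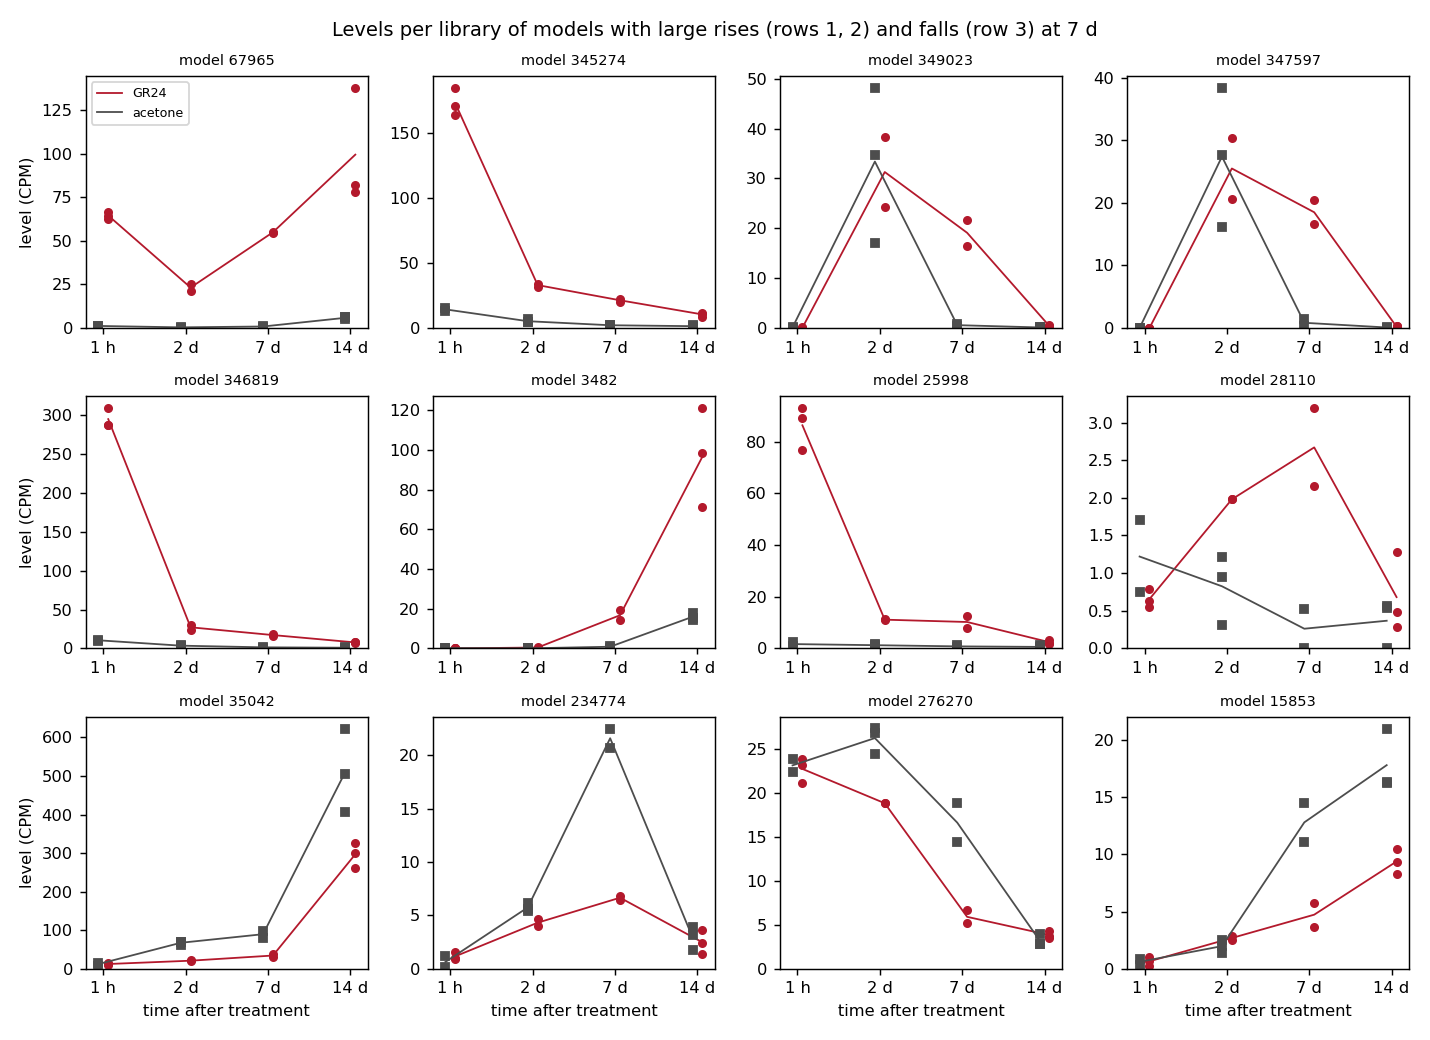
Level (CPM) in each of 20 libraries, by time after treatment, of 8 described models with the largest rises and 4 with the largest falls at 7 d that have the highest levels; points are libraries and lines join group means. The models 349023 and 347597 are near zero at 14 d in both arms, 67965 is apart at all times, and 234774 averages 21.6 CPM with acetone at 7 d against 6.66 CPM with GR24.

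Fitted with the same test on their own libraries, the other times had fewer or more calls. At 1 h 985 of 13967 tested models rose (7.05%) and 474 fell (3.39%), at 2 d 150 of 14704 rose (1.02%) and 166 fell (1.13%), and at 14 d 182 of 14080 rose (1.29%) and 275 fell (1.95%). Of the models that rose at 7 d, 58 also rose at 1 h (9.43% of the 7 d list and 5.89% of the 1 h list), 52 at 2 d (8.46% and 34.7%) and 69 at 14 d (11.2% and 37.9%), while 494 rose at no other time. Of the models that fell at 7 d, 102 also fell at 14 d (33.8% and 37.1%), 38 at 2 d (12.6% and 22.9%) and 30 at 1 h (9.93% and 6.33%), and 56 had risen at 1 h. A call at 7 d alone does not show a difference between times, which was tested next.

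The difference between the GR24 effect at 7 d and at each other time was tested as an interaction in 1 fit of all 20 libraries. Against 1 h, 415 of 15712 models had a higher effect at 7 d (2.64%) and 614 a lower effect (3.91%). Against 2 d these were 70 (0.446%) and 43 (0.274%), and against 14 d 39 (0.248%) and 4 (0.0255%). Of the histone, replication, repair and division models counted together above, 199 could be tested in this fit. Of these, 37 had a higher effect at 7 d than at 1 h, 8 than at 2 d and 14 than at 14 d. A lower effect was seen in 0 in each comparison. The median log2 fold change of these models was -0.01 at 1 h, 0.16 at 2 d and -0.01 at 14 d. Because the groups were formed after values had been seen, the 3 keyword lists are given too. Against 1 h, 8 histone, 36 replication and 19 cell cycle members had a higher effect at 7 d. A lower one was seen in 1, 7 and 2. Against 2 d these were 0, 4 and 7 higher and 0 lower. Against 14 d they were 2, 9 and 7 higher, with 1 cell cycle member lower.

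The condensin subunit 84059 differed from each other time, with an effect higher by 1.29 than at 1 h, by 0.96 than at 2 d and by 1.70 than at 14 d on the log2 scale. DNA polymerase alpha (328449) differed by 0.90, 0.72 and 1.18 and SMC2 (5518) by 0.95, 0.60 and 1.07. Among the falls, the glutathione S-transferase 343163 had risen at 1 h (0.45) and its effect at 7 d was lower by 0.92 than at 1 h and by 0.62 than at 2 d. The differences against 2 d rest on few libraries: against 113 calls, 66 were made without GR24 replicate 3, 12 without its replicate 2, 10 when acetone replicate 1 was left out, and 0 when acetone replicate 2 was (1645 at an unadjusted p under 0.05). The libraries of the 2 times alone gave 8 and DESeq2 gave 182. Against 14 d the count of 43 was 12 and 39 when GR24 replicate 2 or 3 was left out, 21 and 22 when acetone replicate 1 or 2 was, and 139 by DESeq2.

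The authors' deposited table holds their own Baggerley test of the same 4 libraries. In it, the authors' deposited table, a count of 249 models had a corrected p of 0.05 or less, 175 with a fold above 0, 73 with a fold below 0 and 1 with no fold given. Of these, 242 were called here too, which is 97.2% of their calls and 26.4% of the calls made here, and 241 had the same direction in both. The remaining 1 was the model 182350, for which the authors gave no fold, so its direction could not be compared.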

How the data were processed

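Per the labels' protocols, RNA of germinating spores was isolated with poly-T beads and sequenced. Per the file headers, the authors deposited, for each library and each of 30282 gene models of the catalogue Gloin1, total gene reads and unique gene reads (read counts with and without reads that match several models), RPKM values and the model length in bases. The deposited fold of weighted proportions is a signed score, and the deposited p-value is that of a Baggerley test corrected by the authors. The sources used here do not name the aligner, its settings or the use of strand, so overlapping or antisense models could not be told apart. No genome was used here. Samples were grouped by title and treatment, and 55 per-library columns of other measures or experiments were not used.

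The deposited counts of total reads entered a quasi-likelihood test, taken as 2-sided, of edgeR 4.0.16 (R 4.3.3), after filterByExpr and TMM scaling, as a robust fit with Benjamini-Hochberg adjustment over all models tested and a threshold of 0.05. Differences between times were contrasts in 1 fit of 20 libraries. DESeq2 1.42.0, limma-voom (limma 3.58.1), other scalings and filters, unique gene reads and fits without each library were alternatives. The scripts were tested on simulated data.

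Libraries of a group were no duplicates (chi-square per degree of freedom 5.13 for GR24 and 3.97 for acetone). The labels do not say whether replicates are separate cultures, so p-values measure the spread between these libraries, which may be technical. Intervals and floors cover counting error only. The comparison, the 47 keyword lists and the named models were chosen with earlier results of these data known, 4 lists after values were seen; the finer groups of proteins were also formed after values were seen. Named by rule were the 12 largest rises and 10 largest falls with a description and groups that do not overlap, up to 4 called members of each list per direction with the smallest adjusted p, the 4 largest rises and 2 largest falls without a description, and for each time the 4 described models per sign with the clearest difference. Called members of the finer groups are named in addition. Some items, a keyword list among them, are not reported here.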

Additional observations from a re-analysis of the deposited data

Results flagged for a closer look

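The GR24 effect at 7 d differed from that at another time in 23 tests of the difference listed here, by the edgeR interaction test on 20 libraries with Benjamini-Hochberg adjustment. Values are the log2 fold change at 7 d minus that at the other time.

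Against 1 h, the difference was 1.19 for a chitinase-type model (85411), 0.96 for a cytochrome P450 (337901), 2.24 for a LAG1-type transcription factor (343820) and 0.87 for a BTB domain model (299813), which had fallen at 1 h. It was -1.97 for 350329, -2.55 for the P450 19698, -2.17 for a PAS domain kinase (175302) and -2.09 for an NADP-dependent oxidoreductase (344684), which had risen at 1 h. At 7 d none of these 8 passed the test, with log2 fold changes between -0.30 (19698) and 0.03 (343820).

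Against 2 d, the difference was 5.29 for the LysM model 349023, 0.89 for a tetratricopeptide model (114595), 1.24 for a manganese transporter model (136543) and 1.67 for a Myb domain model (36145). At 7 d the last 3 rose by 0.85, 1.19 and 1.30. It was -0.62 for the glutathione S-transferase 343163, -0.69 for a membrane-associated glutathione transferase (338666), -0.95 for the P450 70184 and -1.23 for a glucosamine-phosphate acetyltransferase (27492).

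Against 14 d, the difference was 1.70 for the condensin subunit 84059, 1.07 for SMC2 (5518), 1.18 for DNA polymerase alpha (328449) and 1.54 for the model 250556, which was at 100.3 and 94.6 CPM with GR24 and 15.2 and 17.1 CPM with acetone at 7 d. It was -1.71 for the sulfur amino acid enzyme 276270, -0.96 for a cation channel model (288412) and -0.61 for a cyclin-related model (336082).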

How the results depend on the processing

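The 917 calls at 7 d were 521 by DESeq2 and 574 to 1315 without 1 library, and within 1.5 times under the other alternatives (901 to 975, 824 with a mean of at least 5 CPM, 682 in the 20-library fit). The counts of at least 2-fold changes and of the histone (11 to 15), replication (44 to 61) and cell cycle lists (27 to 44) stayed within 1.5 times under all alternatives. Scaling by library totals alone gave 658 higher and 243 lower. The difference from 1 h (1029) gave 586 to 923 without 1 library. The difference from 2 d (113) gave 182 by DESeq2, 593 with no filter on low counts, 8 from the libraries of the 2 times and 0 to 66 without 1 library. The difference from 14 d (43) gave 139, 328 and 158 under the same alternatives and 12 to 39 without 1 library. No direction was reversed. Of 290 named models past the test 145 passed under every alternative that could test them. The cause of these differences was not tested, except that leaving out a library leaves an arm with 1 sample, which is assumed to vary like the other group. Depth limits models with few reads: in 17 of the 290, most with under 5 CPM in an arm, 1 library moved the fold by more than 1.5 times. No paired analysis was possible because the libraries with counts at 7 d share only replicate number 2.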
